A study of Mus musculus with 2 samples.

Results

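The forebrain regional identity factors examined here are 9 of the 19144 genes in the count table. They were taken as named rows and fall into 3 groups by where they are known to act in the embryo. Emx2, Lhx2 and Pax6 are called dorsal below, Nkx2-1, Dlx1, Dlx2 and Gsx2 ventral, and Otx1 and Otx2 are the Otx genes. All 9 were present in the table. Their transcripts were counted in primary neurospheres, colonies that grow in suspension from dissociated tissue. The tissue was the wall of the lateral ventricle in the forebrain of CD1 mouse embryos. Leukemia inhibitory factor (LIF), a cytokine used to culture primitive neural stem cells, was supplied at 10 ng/mL, and spheres of 50 μm or more were counted after 7 to 10 days. No genotype beyond the CD1 stock, no treated arm and no untreated arm was given, and the age of the embryos was not stated in the sources used here.

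The assay was Drop-seq, in which each captured cell receives a barcode and each polyadenylated molecule a unique molecular identifier (UMI). The labels list 2 samples of a single group, but nothing assigns the 4000 barcodes to them, so the table is 1 sample and no test between samples could be made. The series text speaks of nuclei and the protocols of dissociated cells; a barcode that met the limits below is called a cell here. Barcodes with at least 500 genes and at most 10% mitochondrial UMIs numbered 3765, with 17395968 UMIs, a median of 3869 UMIs (638 to 54060) and a median of 1993 genes. Intervals are exact, at 95%, and cover counting error only. Levels are summed UMIs scaled to a total of 1000000 UMIs (CPM), and since each molecule is counted once at its 3′ end they were not divided by length.

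In the embryonic forebrain, signals from the dorsal midline and from ventral sources divide the telencephalon into a pallium above, which forms cortex and hippocampus, and a subpallium below, which forms the ganglionic eminences. Homeodomain transcription factors expressed in one of these territories maintain its identity and in part repress the programme of the other. Neural stem cells taken into culture often carry such factors over from their tissue of origin, and cultured precursors are also known to lose or mix them.

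All 9 factors carry a homeobox, the stretch of DNA that encodes their DNA-binding domain. On mm10, with GENCODE M21 gene limits, Emx2 lies at chr19:59458372-59465357 and Lhx2 at chr2:38339281-38369733, both on the plus strand. Pax6 lies on the plus strand at chr2:105668900-105697364, and Gsx2 on the plus strand at chr5:75075601-75077893. The minus strand holds Otx1 at chr11:21994764-22002897, Otx2 at chr14:48657677-48673819 and Nkx2-1 at chr12:56531958-56536908. Dlx1, at chr2:71528113-71533981 on the plus strand, and Dlx2, at chr2:71543408-71546754 on the minus strand, face each other across 9426 bases. Distal-less genes occur in mammals in such convergent pairs. Antisense transcripts overlap several members, and since the sources used here do not say whether counting used strand, reads of such partners cannot be told apart. Of those in the table, Emx2os had 141 UMIs, while Pax6os1, Gm13584 over Lhx2 and Gm26973 over Nkx2-1 had 1, 1 and 2 UMIs.

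The homeoboxes of Dlx1 and Dlx2 are shown because these neighbours were found together in cells more often than any other pair of members with an interval clear of expectation. Each runs for 180 bases in the 5′ to 3′ sense of its transcript (GENCODE M21), and capitals mark the bases at which they differ.
Dlx1 homeobox: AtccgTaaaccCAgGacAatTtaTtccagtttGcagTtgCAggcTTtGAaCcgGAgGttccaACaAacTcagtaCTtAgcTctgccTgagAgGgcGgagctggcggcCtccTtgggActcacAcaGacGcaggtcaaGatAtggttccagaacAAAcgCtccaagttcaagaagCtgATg
Dlx2 homeobox: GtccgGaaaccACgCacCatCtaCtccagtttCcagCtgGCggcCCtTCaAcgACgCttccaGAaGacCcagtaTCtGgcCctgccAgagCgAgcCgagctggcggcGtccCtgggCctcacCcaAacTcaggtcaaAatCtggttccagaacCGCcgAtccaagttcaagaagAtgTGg
They shared 133 of 180 bases (73.9%), with no identical run longer than 15 bases. Otx1 and Otx2 shared 144 of 180 bases (80%), with a longest run of 18 bases. Over the other pairs of members the identity was lower, for example 50.6% for Otx2 with Gsx2 and 60% for Pax6 with Otx2.

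Emx2, which patterns the hippocampal and caudal cortical primordium, was the most abundant member. It had 1114 UMIs, or 64.0 CPM (60.3 to 67.9), and was seen in 790 cells. Lhx2, the LIM-homeodomain selector of cortical fate, had 535 UMIs in 457 cells, or 30.8 CPM (28.2 to 33.5). Pax6, which specifies pallial radial glia and sets the boundary with the subpallium, had 360 UMIs in 291 cells, or 20.7 CPM (18.6 to 22.9). These levels fell in the order Emx2, Lhx2, Pax6 with no overlap of intervals.

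Otx2, a head organiser gene later used in the choroid plexus, diencephalon and midbrain, had 567 UMIs in 424 cells, or 32.6 CPM (29.97 to 35.4). Its interval overlapped that of Lhx2. Otx1, its paralog in cortical and midbrain precursors, had 29 UMIs in 28 cells, or 1.67 CPM (1.12 to 2.39), and was the lowest member. Choroid plexus identity was not visible beside Otx2, since Ttr had 2 UMIs and Folr1 had 1 UMI in all cells.

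The ventral members were all low. Dlx2, which drives the ganglionic eminences towards GABAergic neurons, had 133 UMIs in 114 cells, or 7.65 CPM (6.40 to 9.06). Its neighbour Dlx1 had 64 UMIs in 48 cells, or 3.68 CPM (2.83 to 4.70). Nkx2-1, the selector of the medial ganglionic eminence and hypothalamus, had 59 UMIs in 54 cells, or 3.39 CPM (2.58 to 4.37). Gsx2, which specifies the lateral ganglionic eminence, had 52 UMIs in 48 cells, or 2.99 CPM (2.23 to 3.92). Dlx2 stood above the other ventral members, whose intervals overlapped. Summed, the dorsal members had 2009 UMIs and the ventral members 308, a ratio of 6.52 (5.78 to 7.38).

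Cells differ in depth, so shares of cells were compared after random thinning to 2000 UMIs per cell, which left 3055 cells and set aside 710 shallower ones. At that depth Emx2 was found in 333 cells, or 10.9% (9.82 to 12.1), Otx2 in 5.56% (4.78 to 6.44), Lhx2 in 5.47% (4.69 to 6.33) and Pax6 in 3.18% (2.58 to 3.86). Among ventral members Dlx2 was found in 1.47% (1.08 to 1.97), Nkx2-1 in 0.818%, Gsx2 in 0.753% and Dlx1 in 0.589%, and Otx1 was found in 0.327%. A dorsal member was present in 567 cells, or 18.6% (17.2 to 19.98), and a ventral member in 108 cells, or 3.54% (2.91 to 4.25). Without thinning the shares were 33.7% and 6.61%. Shares of the deeper members kept growing with depth, as Emx2 reached 16.1% at 3000 UMIs and 5.65% at 1000.

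**Figure D1:**
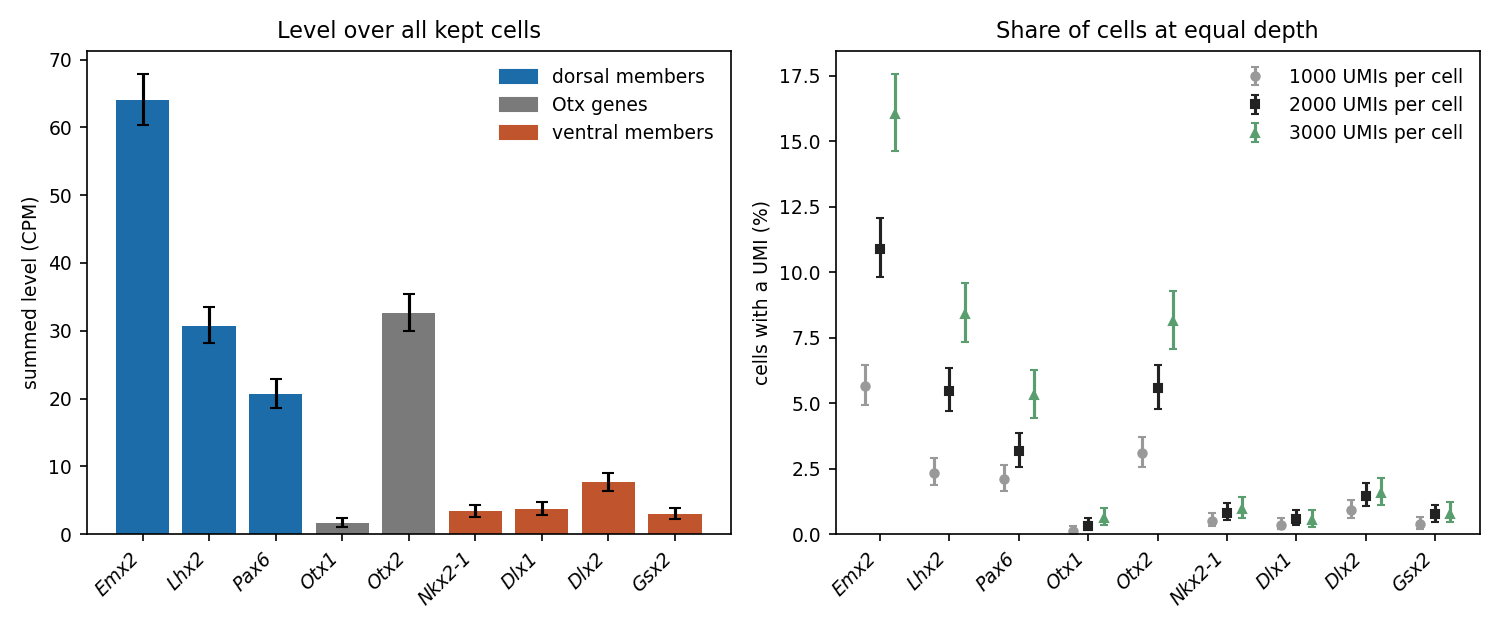
Left, the level of each member in CPM summed over the 3765 cells, with exact Poisson intervals at 95%. Right, the percentage of cells with a UMI of each member after thinning to 1000, 2000 or 3000 UMIs per cell, with exact binomial intervals at 95%; Emx2 rises to 16.1% at 3000 UMIs, while Dlx2, the highest ventral member, reaches 1.56%.

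Transcripts of several members were more bunched within cells than a random spread would give. At 2000 UMIs per cell, 42 cells had at least 2 UMIs of Emx2, against 21.9 cells if its UMIs were spread at random. For Otx2 the count was 21 cells against 6.15, and for Dlx1 it was 4 cells against 0.0861. The ratio of variance to mean, which is 1 for a random spread, was highest for Dlx1 at 1.51 and Otx2 at 1.30, against 1.16 for Emx2, 1.09 for Lhx2 and 1.10 for Pax6. For Otx1 it was 0.997, with 0 cells holding at least 2 UMIs. Thus the scarce Dlx1 was concentrated in few cells, with up to 3 UMIs in a cell.

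The surrounding regional genes were mixed in kind. Of the other subpallial genes listed, 18 of 19 were in the table and 9 had at least 50 UMIs. Olig1 and Olig2, basic helix-loop-helix factors of ventral and oligodendroglial precursors, reached 1267 CPM and 622 CPM. Meis2 (189 CPM), Sall3 (130 CPM) and Six3 (130 CPM) were also above every dorsal member, whereas Dlx5, Dlx6 and Lhx8, markers of later subpallial steps, had 10, 4 and 1 UMIs. Of 18 other pallial genes, 15 were in the table and 4 had at least 50 UMIs. Nr2f1, a graded regulator of cortical areas, had 24.7 CPM, Wnt7b 12.8 CPM, Gli3 10.9 CPM and Insm1 7.36 CPM. Eomes and Tbr1, which mark cortical intermediate progenitors and early cortical neurons, had 1 UMI each, and Neurog2, the pallial proneural factor, had 2 UMIs. Of the excitatory list, Neurod1 had 179 UMIs in 99 cells and Bcl11b 172 UMIs in 143 cells. Emx2, Lhx2 and Pax6 were therefore present with almost no transcripts of Eomes, Tbr1 and Neurog2, and Olig1 and Olig2 exceeded every other ventral gene listed.

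Genes of regions behind the forebrain were close to absent, with 48 UMIs over 9 midbrain and hindbrain genes and 12 UMIs over 9 HOX genes. Among diencephalic genes, Tcf7l2 (49.6 CPM), Barhl2 (23.2 CPM) and Nkx2-2 (16.6 CPM) had at least 50 UMIs, and the hypothalamic gene Rax had 1 UMI. In the hedgehog pathway, which induces ventral fates, the ligand Shh had 2 UMIs. Its targets Gli1 and Ptch1 had 4 and 33 UMIs, whereas the co-receptor Gas1 reached 132 CPM and Smo, the transducer, 22.5 CPM. Cofactors that pair with the members were well represented, with 13 of 14 measured at 50 UMIs or more. Lmo4 (314 CPM) and Lmo1 (172 CPM), which compete with LIM-homeodomain factors such as Lhx2 for Ldb proteins, stood above Ldb1 itself (37.8 CPM).

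Co-detection asks whether dorsal and ventral factors occurred in the same cell. At 2000 UMIs per cell 17 cells held both a dorsal and a ventral member, against 20.04 expected from the product of the shares, a ratio of 0.848 (0.494 to 1.36). A ventral member was found in 2.998% (1.76 to 4.76) of dorsal-positive cells and in 3.66% (2.95 to 4.47) of dorsal-negative cells. Using every UMI and computing the expected number within 20 bins of depth, 105 cells held both against 101.0 expected, a ratio of 1.04 (0.851 to 1.26). The choice of that calculation came after the values at 2000 UMIs. The dorsal members thus neither avoided nor accompanied the ventral members beyond counting error, and the larger count bounds the ratio to between 0.851 and 1.26. Cells with both a dorsal and an Otx gene numbered 204 against 194 expected, a ratio of 1.05 (0.914 to 1.21), and cells with a ventral and an Otx gene 43 against 36.2, a ratio of 1.19 (0.860 to 1.60).

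The 36 pairs of members were also taken singly. Thinned to 2000 UMIs, 0 of 36 had an interval above or below the expected count. With all UMIs, 2 had an interval above it and 0 below. Dlx1 and Dlx2 shared 8 cells against 1.94 expected, a ratio of 4.12 (1.78 to 8.12). These 8 cells were spread over clusters 3, 4, 6, 7 and 9, described below. Without clusters 7 and 9 the pair shared 4 cells against 1.61 expected, a ratio of 2.48 whose interval (0.677 to 6.36) included 1. Pax6 and Dlx2, a dorsal and a ventral factor, shared 20 cells against 11.9, a ratio of 1.67 (1.02 to 2.59). At 2000 UMIs Pax6 and Dlx2 shared 1 cell against 1.43 expected, a count too small to give a direction. Without the 5% of cells with most UMIs that pair shared 12 cells against 7.85, a ratio of 1.53 (0.789 to 2.67). The contribution of captures that held more than 1 cell to either pair was not tested. No caller for such captures was run.

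With all UMIs, the 3 dorsal pairs lay close to the expected count. Emx2 and Lhx2 shared 146 cells against 137, a ratio of 1.06 (0.897 to 1.25), Emx2 and Pax6 93 against 87.7, and Lhx2 and Pax6 56 against 52.0. A cell with a transcript of a cortical selector was therefore not measurably richer in the next. With all UMIs, the median ratio across the 12 dorsal-ventral pairs was 0.994. The lowest value was 0.396 for Pax6 with Dlx1 and the highest 1.77 for Lhx2 with Dlx1. Nkx2-1 had fewer shared cells than expected with each of Emx2 (9 against 13.1), Lhx2 (4 against 7.86) and Pax6 (3 against 4.94), and each of these intervals included 1.

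**Figure D2:**
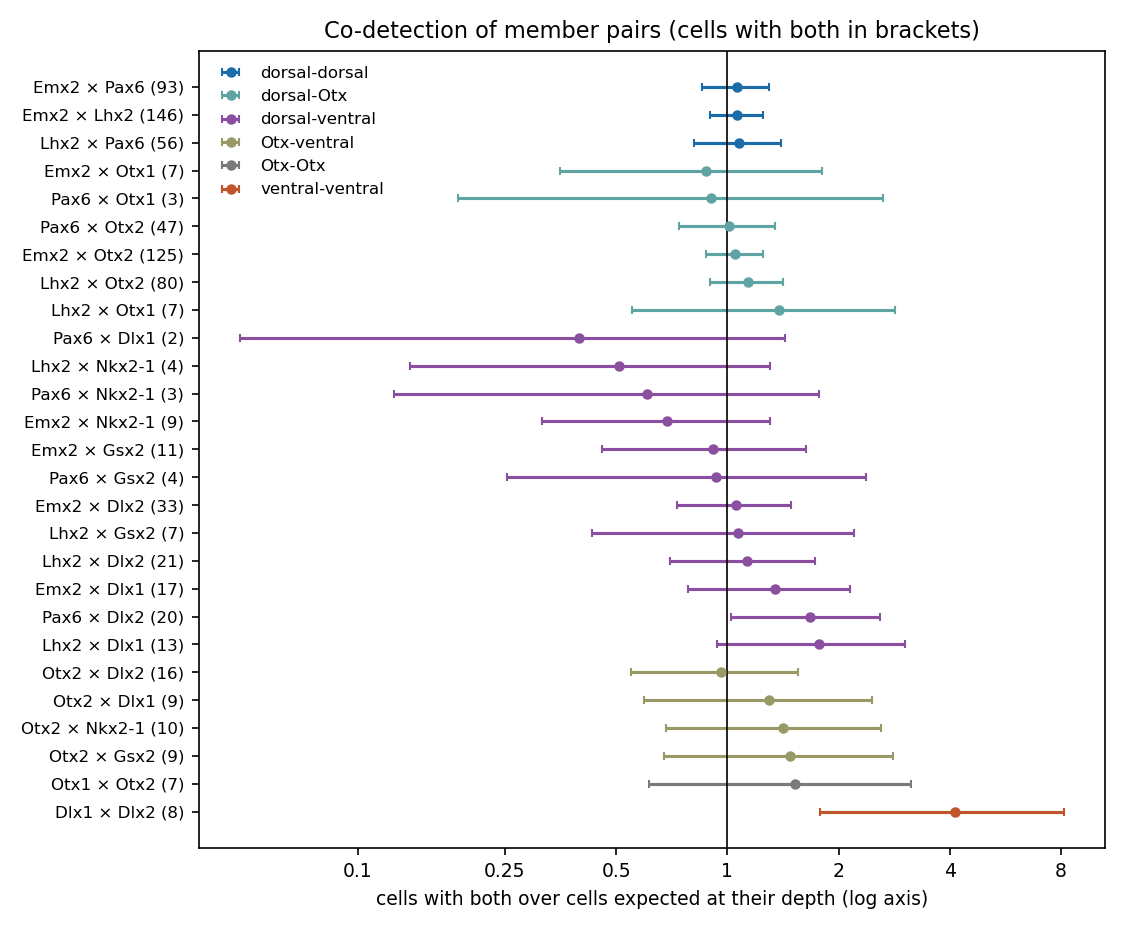
Cells holding both members of a pair divided by the number expected within 20 bins of depth, on a log axis, with exact Poisson intervals at 95%; the cells with both stand in brackets. Of the 27 pairs drawn, all but Dlx1 with Dlx2 had an expected count of at least 3, and that pair and Pax6 with Dlx2 have intervals wholly above 1.

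Other regional genes were examined in the same way. For 11 genes with sufficient counts, the share of cells with a dorsal member, a ventral member, Emx2 or Otx2 was compared between cells with and without that gene, 44 comparisons in all. The intervals failed to overlap in 1 of them. Emx2 was found in 14.9% (12.3 to 17.8) of 664 cells with Six3, an anterior forebrain homeobox gene, and in 9.79% (8.62 to 11.0) of 2391 cells without it. Six3 is among the subpallial genes listed above, so here a dorsal member was more frequent in cells with a gene listed as ventral. For any dorsal member the shares were 21.2% with Six3 and 17.8% without, with overlapping intervals. A dorsal member was found in 17.6% of Olig2-positive cells and in 20.3% of Olig2-negative cells, with overlapping intervals. For Meis2 the shares were 18.5% with and 18.6% without the gene.

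Members were next followed over 9 clusters, built with the regional genes, their pathways, their cofactors and the listed S, G2 and M phase and proliferation genes held out. Cell-cycle genes outside those lists, such as Aspm, were kept and helped to make the clusters. The values are descriptions, since other genes of the same cells made the clusters. A level was called past the fold where the whole interval of its ratio to all other cells lay above 1.5 or below the inverse of 1.5. In clusters 2, 3 and 6, 0 of the 9 members passed in either direction, where 0.0882%, 1.59% and 0.994% of all 12477 genes measured were higher and 0.842%, 1.06% and 1.86% lower. Emx2 and Lhx2 passed in 0 of 9 clusters. Emx2 ranged between 36.5 and 103 CPM, with ratios of 0.569 to 1.62, and was thus distributed over the whole culture.

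Cluster 9, with 31 cells, was neuron-like, since 13 of 14 immature neuron markers were past the fold and Stmn2, Stmn4 and Tubb3 were among its leading genes. Dlx1, Dlx2 and Nkx2-1, 3 of the 9 members, were higher there, against 5.71% of all 12477 genes measured, and 0 were lower, against 1.07%. Dlx1 had 10 UMIs in 6 of these cells, or 122 CPM against 3.12 CPM in other cells, a ratio of 39.0 (17.7 to 77.4). Dlx2 had 8 UMIs, or 97.4 CPM against 7.22 CPM, a ratio of 13.5 (5.70 to 27.4), and Nkx2-1 had 4 UMIs, a ratio of 15.3 (4.03 to 41.5). Emx2 had 3 UMIs in 2 cells, 6.45% of a cluster with a median of 1825 UMIs, against 21.0% of all cells at their median of 3869. Lhx2, Pax6, Otx1 and Otx2 had 0 UMIs, which allows up to 36.5 CPM each (3 counts). Their levels in other cells, 30.9, 20.8, 1.67 and 32.7 CPM, lay below that limit. Lower levels of these members in cluster 9 were therefore not shown. The neuron-like cells thus carried ventral members together with Gad1, Gad2 and Sp9, 3 of 4 measured genes of the inhibitory lineage, and also Bcl11b and Neurod1, 2 of 2 measured genes of the excitatory list.

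Most Dlx transcripts nevertheless lay outside that cluster, with 54 UMIs of Dlx1 and 125 of Dlx2 in other cells. Of the neuronal genes, Stmn2 had 95 UMIs in cluster 9 and 16 elsewhere, and Tubb3 had 68 and 70. The part of free RNA in the Dlx counts outside the cluster was not tested.

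Cluster 7, with 131 cells, was led by Myt1 and the Notch ligand Dll3, and 5 of 7 intermediate progenitor and 4 of 5 oligodendrocyte precursor markers were past the fold. It was left unnamed. Dlx2 was the 1 member higher there, against 2.08% of all genes, and 0 were lower, against 1.29%. It had 9 UMIs, or 24.9 CPM against 7.28 CPM elsewhere, a ratio of 3.42 (1.53 to 6.70). Dlx1 had 5 UMIs and a ratio of 3.99 (1.25 to 9.85), which did not pass. Clusters 7 and 9 together held 2.55% of all UMIs but 23.4% of the Dlx1, 12.8% of the Dlx2, 10.2% of the Nkx2-1 and 9.62% of the Gsx2 UMIs.

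Otx2 marked a different set of cells. Cluster 5, with 181 cells, was led by Ndrg1, Slc16a3, Igfbp5, Selenbp1, Bnip3 and Mt2, among which Ndrg1, the lactate exporter gene Slc16a3 and the mitophagy receptor gene Bnip3 are known to be induced by low oxygen. In addition 9 of 10 astrocyte markers were past the fold there, and 0 of 52 G2 and M phase genes were higher while 27 were lower. Otx2 had 72 UMIs in this cluster, or 114 CPM against 29.5 CPM in other cells, a ratio of 3.87 (2.98 to 4.96). At equal depth it was found in 16.2% (10.4 to 23.5) of the cluster's cells and in 5.07% (4.30 to 5.93) of others. The cluster held 12.7% of the Otx2 UMIs and 3.62% of all UMIs. Otx1, with 5 UMIs, had a ratio of 5.54 (1.65 to 14.8), and Gsx2, with 7 UMIs, a ratio of 4.14 (1.57 to 9.24), so 3 of the 9 members were higher there, against 4.13% of all genes, and 0 lower, against 1.64%. In cluster 1, whose cell-cycle genes were low, Otx2 (ratio 0.534) and Dlx1 (ratio 0.175) were the 2 of 9 members lower, against 4.36% of all genes, and 0 were higher, against 1.55%.

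Pax6 was higher in cluster 4, the cells in which 48 of 52 G2 and M phase genes were past the fold. It was the 1 member higher, against 2.16% of all genes, and 0 were lower, against 1.66%. Pax6 had 141 UMIs, or 33.0 CPM against 16.7 CPM elsewhere, a ratio of 1.98 (1.59 to 2.46). Its share at equal depth was 6.41% (4.601 to 8.66) in cluster 4 and 2.37% (1.80 to 3.05) in other cells. Pax6 was also higher in cluster 8, with 12 UMIs and a ratio of 3.84 (1.97 to 6.80), where 10% of all genes were higher. That cluster of 117 cells had a median of 947 UMIs and was led by the nuclear RNA Malat1 at a ratio of 14.1, and the part of its low depth in this value was not tested.

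**Figure D3:**
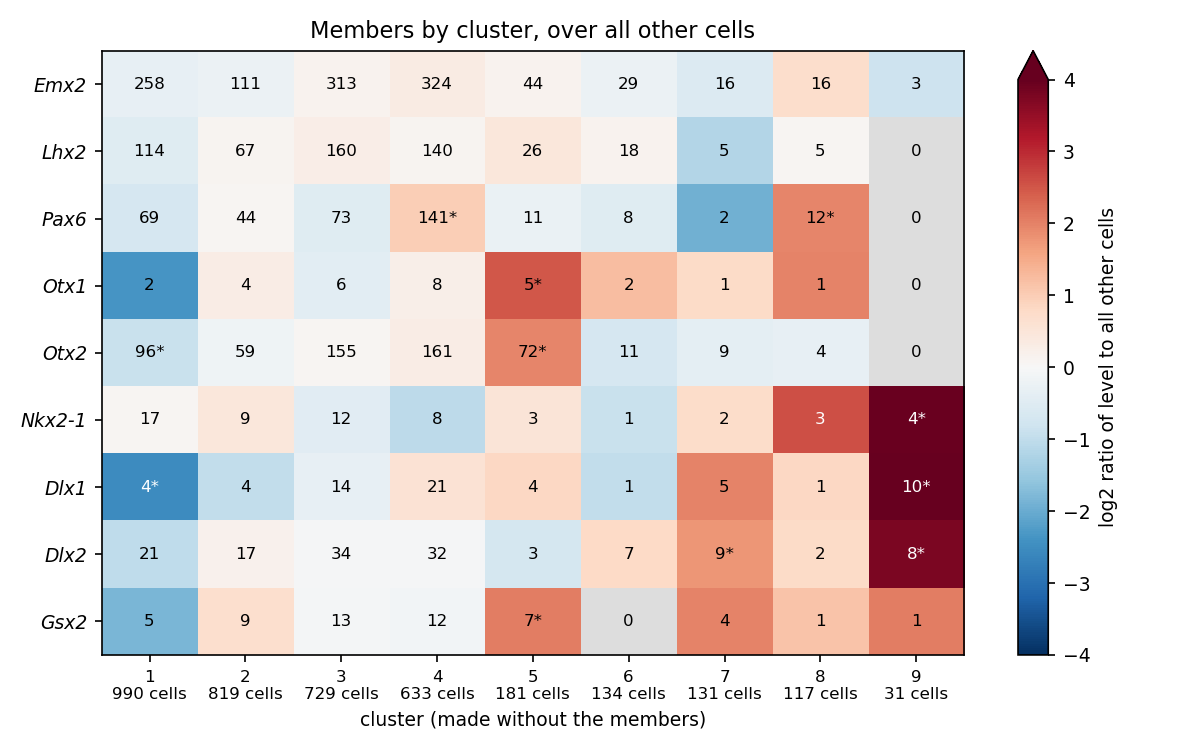
Members (rows) in 9 clusters (columns) made without them; colour gives the log2 ratio of the level in a cluster to that in all other cells, cell text the UMI count, grey 0 UMIs, and a star marks a ratio past the 1.5-fold threshold. Dlx1, Dlx2 and Nkx2-1 stand out in cluster 9, the Otx genes and Gsx2 in cluster 5, and Pax6 in clusters 4 and 8, while Emx2 and Lhx2 have no star.

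Cells were also divided by their UMIs of 6 proliferation genes at equal depth. Pax6 was found in 1.14% (0.522 to 2.15) of the 790 cells with none, in 3.04% (2.03 to 4.37) of the 920 cells with 1 to 2 and in 4.46% (3.42 to 5.71) of the 1345 cells with 3 or more. The intervals of the lowest and highest class did not overlap. Emx2 was found in 9.62%, 10.9% and 11.7% of the same classes and Lhx2 in 4.81%, 5.33% and 5.95%, with overlapping intervals. A ventral member was found in 3.54%, 3.15% and 3.79%. Any dorsal member, Pax6 included, was found in 14.7% (12.3 to 17.3), 18.4% (15.9 to 21.0) and 21.0% (18.8 to 23.2). Of the 9 members taken singly, Pax6 was therefore the 1 whose lowest and highest classes were apart beyond counting error.

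**Figure D4:**
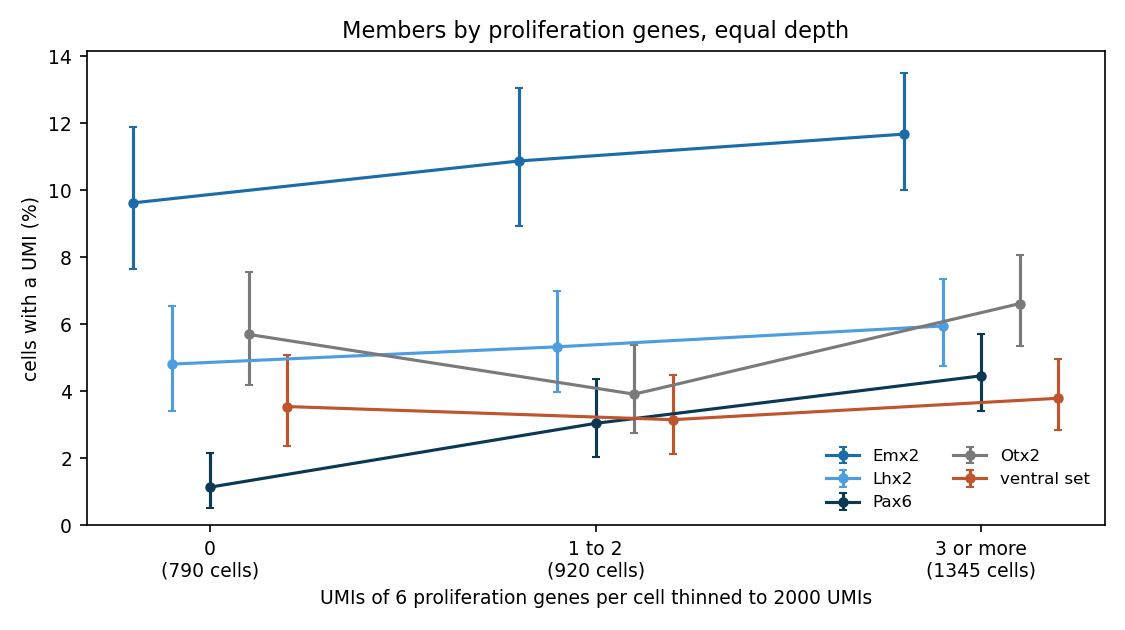
Percentage of cells with a UMI of Emx2, Lhx2, Pax6, Otx2 or any ventral member, by the number of UMIs of 6 proliferation genes per cell thinned to 2000 UMIs, with exact binomial intervals at 95%. Pax6 rises over the 3 classes to 4.46%, with the lowest class at 1.14%.

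Partner genes are genes whose level, at 2000 UMIs per cell, differed between cells with and without a member. The same threshold of 1.5 was applied to the interval of the ratio, among genes with at least 100 UMIs. Between 333 cells with Emx2 and 2722 without it, 0 of 7330 genes (0%) were higher and 3 (0.0409%) lower, among them Ap3b1 and Ndufaf7. Between 167 cells with Lhx2 and 2888 without, 1 gene (0.0136%) was higher, Triobp, and 5 (0.0682%) were lower. For a dorsal member of any kind, 567 cells against 2488, it was 0 genes (0%) in either direction. Triobp was not among the higher genes of Lhx2 at 1000 or 3000 UMIs or with another seed. No measured gene of the regional, hedgehog, Wnt or cofactor lists passed for Emx2, Lhx2, Otx2 or either set. With the minimum of 100 UMIs, 0 ventral members, 0 midbrain and hindbrain genes and 0 HOX genes were measured. Of the other pallial genes 1 was measured. The ventral members were therefore not assessed as partners of the dorsal members here.

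Otx2, with about as many positive cells as Lhx2, had 18 higher genes (0.246%) and 8 lower (0.109%) between 170 cells with it and 2885 without. The metallothionein genes Mt2 and Mt1, which encode small metal-binding proteins, had 1159 CPM against 273 CPM, a ratio of 4.25 (3.80 to 4.75), and 2956 CPM against 844 CPM, a ratio of 3.50 (3.27 to 3.75). Bnip3 had 191 CPM against 41.4 CPM, a ratio of 4.62 (3.45 to 6.09). Igfbp5, a secreted binder of insulin-like growth factors, had a ratio of 4.77 (3.16 to 7.03), and Apoe, the astrocytic lipid carrier, 3.29 (2.82 to 3.82). These genes were past the fold in cluster 5 as well, as were 16 of the 18, against 4.13% of all genes. Both comparisons used the same cells, and Otx2 itself was higher in that cluster. Mt2, Bnip3 and Igfbp5 also helped to make it, so the overlap is not independent. Named after their values were seen, Vegfa (2.89), Pdk1 (2.93), Ankrd37 (3.45), Ero1l (3.18) and Ddit4 (2.06) are further genes known to respond to low oxygen. In all 3 other thinnings 7 of the 18 passed again, among them Mt1, Mt2, Bnip3, Apoe and Vegfa, and 7 passed in none of the others.

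Outside cluster 5 the relation was weaker. With that cluster left out, 4 genes (0.0558%) were higher and 5 (0.0697%) lower, and 3 of the 4 were among the 18, Spdl1 being the other. Ero1l, which encodes an oxidase of the endoplasmic reticulum, kept a ratio of 2.82 (1.67 to 4.53), Rfx3, a ciliary transcription factor gene, 3.36 (1.94 to 5.50) and Prrx1, a homeobox gene, 2.46 (1.53 to 3.77). With all clusters kept, Ero1l passed in 1 of the 3 other thinnings, and Rfx3 and Prrx1 in 0. Without cluster 5, Mt2 had a ratio of 1.90 (1.49 to 2.39), Mt1 1.41 (1.23 to 1.60) and Bnip3 1.38 (0.617 to 2.71). Of the 14 genes still measured, 6 had an interval above 1. The share of all genes with such an interval was not counted. Of the 170 cells with Otx2, 148 remained, and the 18 genes had been picked as higher in cells that include these. The 3 of 4 and the 6 of 14 are therefore not independent of that choice.

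**Figure D5:**
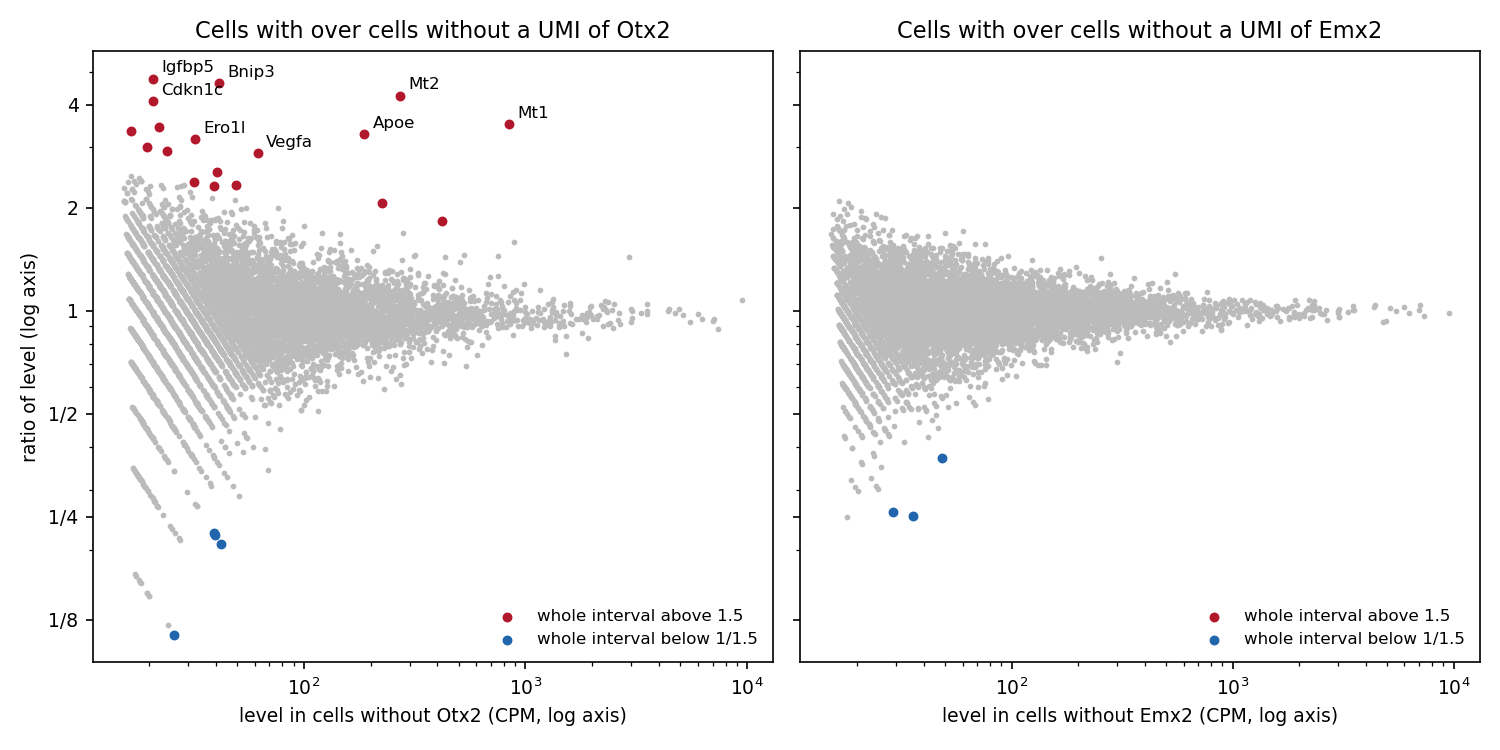
Ratio of each gene's level in cells with a UMI of Otx2 (left) or Emx2 (right) to that in cells without, against the level in cells without, at 2000 UMIs per cell on log axes; coloured points are past the 1.5-fold threshold and genes with 0 UMIs in positive cells are not drawn. Otx2 has 18 higher genes, among them Mt1, Mt2, Bnip3 and Vegfa, and Emx2 has 0.

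Genes known to respond to low oxygen were among the higher genes of Otx2 when cluster 5 was kept. Without that cluster Ero1l alone of those named stayed past the fold, and Ankrd37 was not measured. The promoter windows of Otx2 are shown with the core of the hypoxia response element in capitals, ACGTG or GCGTG on either strand. RefSeq start sites on GRCm38.p6 gave 13 windows of 300 bases for 8 of the 9 members, and Otx1 had none. Otx2 had 4 windows, all on the minus strand of chromosome 14, and 2 of these, at chr14:48662685-48662984 and chr14:48665060-48665359, held a core.
Otx2 window 1: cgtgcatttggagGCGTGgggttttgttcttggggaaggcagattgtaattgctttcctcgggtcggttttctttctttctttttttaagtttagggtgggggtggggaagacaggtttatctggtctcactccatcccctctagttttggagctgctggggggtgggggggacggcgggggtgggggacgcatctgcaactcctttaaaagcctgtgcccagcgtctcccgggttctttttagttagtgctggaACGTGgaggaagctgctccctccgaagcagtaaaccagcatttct
Otx2 window 2: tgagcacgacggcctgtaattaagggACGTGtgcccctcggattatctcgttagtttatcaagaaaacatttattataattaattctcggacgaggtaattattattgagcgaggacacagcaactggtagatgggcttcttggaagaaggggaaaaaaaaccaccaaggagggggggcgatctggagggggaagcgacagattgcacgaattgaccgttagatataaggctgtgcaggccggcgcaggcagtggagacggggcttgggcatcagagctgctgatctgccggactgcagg
Window 1 had 1 GCGTG and 1 ACGTG, and window 2 had 1 ACGTG. Such cores were common, since 43.8% of all 32851 windows held at least 1, 19.6% an ACGTG and 32.4% a GCGTG. Windows of Lhx2, Pax6, Dlx2 and Gsx2 also held at least 1, whereas those of Emx2, Nkx2-1 and Dlx1 held none. A match describes letters and not occupancy, and control of Otx2 by low oxygen was not tested.

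Cells with a ventral member, 108 against 2947 without, had 7 higher genes (0.0955%) and 8 lower (0.109%). Cdkn1c, which encodes the cell-cycle inhibitor p57 of cells leaving division, had 125 CPM against 20.7 CPM, a ratio of 6.04 (3.83 to 9.22). Hist3h2ba (3.49), Gnao1 (3.30), Atp13a2 (3.07) and Nrep (2.605) followed. Of the 7 higher genes, 2 passed again at 1000 UMIs, 1 at 3000 UMIs and 4 with another seed. Cdkn1c was also among the leading genes of clusters 5 and 7. Without clusters 7 and 9 it kept a ratio of 3.30 (1.65 to 6.01), with 4 genes (0.0553%) higher and 5 (0.0692%) lower. The dorsal members were not past the fold in ventral-positive cells.

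Pax6 had 97 positive cells, below the minimum of 100, and its partners were examined after the values were seen. There were 13 higher genes (0.177%) and 6 lower (0.0819%). Higher were the mitotic genes Kif20a, with 113 CPM against 38.9 CPM, a ratio of 2.92 (1.79 to 4.52), and Aspm, with 165 CPM against 66.4 CPM, a ratio of 2.48 (1.68 to 3.56). Mki67 (1.92), Ube2c (1.90), Aurkb (2.37) and Cenpa (1.87) were the 4 of 52 G2 and M phase genes past the fold. The median ratio over these 52 genes was 1.53, against 0.984 over all genes. Hes5, a Notch target of radial glia (2.35), and Gja1, the gap junction gene of radial glia and astrocytes (2.17), were also higher. These partners of Pax6 were not recomputed at another depth, seed or fold. The same cells gave the Pax6 values in cluster 4 and in the proliferation classes. Mki67 and Ube2c are among the proliferation genes too, so these results are not independent of each other.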

How the data were processed

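Drop-seq UMI counts were deposited by the authors as 1 table of whole numbers per gene and barcode, with no normalization. The genome build was mm10, per the submitters' processing notes; for the aligner, counting program, annotation and barcode rule, the version and settings were not given in the sources used here. No map from barcodes to the 2 samples was used, so the table is 1 sample and no p-value was computed; 0 columns were left unused. The members and gene lists were chosen with earlier results of these data known. Kept barcodes had 500 genes or more and 10% mitochondrial UMIs or less, and 235 were left out; 285 of all barcodes end in an unread base. Doublets were not called. Some list genes are not reported here.

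Sums have exact Poisson, shares Clopper-Pearson and ratios conditional binomial intervals at 95%, for counting error only. PCR and sampling of cells add error that these intervals lack. Cells were thinned without replacement to 2000 UMIs (1000 and 3000 as alternatives). Clustering used 2000 variable genes, 30 principal components, 15 neighbours and Leiden resolution 0.8 (scanpy 1.11.5, leidenalg 0.10.2, python 3.11.15, numpy 2.4.6, scipy 1.17.1), on genes in at least 5 cells scaled to 10000. Genes with at least 20 UMIs were measured by cluster, and genes with at least 100 as partners. Named genes were the 9 members, list genes, the 5 partners with the highest lower or the 5 with the lowest upper bound, and the 10 leading genes of a cluster; other names are marked in the text or complete a count. The interval rule was tested on simulated Poisson counts, which lack the bunching within cells seen for several members. Calls that arise from such bunching were therefore not tested. Levels, shares, co-detection, partners and clusters were recomputed with other filters, depths, seeds, folds, resolutions and cell exclusions. The partners of Pax6 were not recomputed.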

Additional observations from a re-analysis of the deposited data

Results flagged for a closer look

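Transcripts of members were also present in the 235 barcodes that the filters left out, which held 195947 UMIs in all. There were 12 UMIs of Emx2, or 61.2 CPM (31.6 to 107), 5 of Lhx2, or 25.5 CPM (8.29 to 59.5), and 10 of Otx2, or 51.0 CPM (24.5 to 93.9). Each of these intervals included the level in kept cells. Pax6 had 14 UMIs, or 71.4 CPM (39.1 to 120), against 20.7 CPM in kept cells, which lies below that interval. These counts were picked out because each is above 3 UMIs, in barcodes that no comparison used. The remaining members had 3 UMIs or fewer there, with 0 of Gsx2.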

How the results depend on the processing

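Under other filters, a mean over cells, and without doubtful barcodes, 50 of 54 member levels moved by less than their interval. As a mean over cells Emx2 had 60.2, Nkx2-1 4.83, Dlx1 5.33 and Dlx2 9.07 CPM. Depth set the shares, with a dorsal member in 9.70% of cells at 1000 UMIs and 27.0% at 3000, and a ventral member in 2.10% at 1000. Dorsal-ventral co-detection ranged over its alternatives between 0.602 (without Lhx2) and 1.37 (at 1000 UMIs). Partner counts were the least stable. Emx2 had 11 genes past the fold at 1000 UMIs, 0 at 3000 and 0 at a fold of 2, against 3; Lhx2 had 11 at 1000 UMIs, 3 with another seed and 3 at a fold of 2, against 6. Otx2 had 11 at a fold of 2 and 9 without cluster 5, against 26. The dorsal set had 1 with another seed, against 0; the ventral set had 24 with another seed, 1 at a fold of 2 and 9 without clusters 7 and 9, against 15. The ratio of Otx2 in cluster 5 was 6.16 with clustering seed 1, where the matching cluster had 100 cells, and that of Dlx2 in cluster 7 was 1.06 at resolution 0.4, where the best match had 956 cells. The other 49 values of this kind stayed within their limits. Among these, minimums of 200 and 1000 genes gave identical co-detection counts at 2000 UMIs, so they tested nothing there. For partner genes the limit was on the number of genes past the fold, not on which genes they were. Within that limit the ventral set kept 1 of its 7 higher genes at 3000 UMIs and 2 at 1000. Lhx2 kept 0 of 1 at 3000 UMIs, and Otx2 kept 18 of 18 without neuron-like cells. A partner count within its limit therefore does not show that the same genes passed. No paired analysis was possible because barcodes carry no sample, and for the same reason no replicate could be left out. Levels of the ventral members rest on 52 to 133 UMIs.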
